A study of Mus musculus with 4 samples.

Results

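The genes described here encode the precursors of 3 kinds of sensory neuropeptide, substance P, calcitonin gene-related peptide (CGRP) and PACAP, and parts of the receptors for them or of related receptors. They were taken by gene symbol: Tac1, Calca, Calcb and Adcyap1 for the precursors, and Tacr1, Calcrl, Ramp1, Ramp2, Ramp3 and Adcyap1r1 for the receptors. Ramp2 and Ramp3 are counted with the receptors here, although with Calcrl they form receptors for adrenomedullin. In the platform's annotation 9 of these 10 genes had a probe set that carried their symbol alone, 17 probe sets in all among 45037 without controls. Calca, 1 of the CGRP genes, had none and was not analysed here. A further 2 probe sets carried the symbols of both Ramp2 and Vps25 and were named for neither.

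Dorsal root ganglia, in which the cell bodies of sensory neurons lie beside the spinal cord, were dissected fresh from mice, and their total RNA was hybridised to 4 Affymetrix arrays. By the labels, 2 arrays belong to ganglia of one level, here the sample-1 level, and 2 to ganglia of another, here the sample-2 level. Which levels these were, the strain, age and sex of the mice and any pooling are not given, and no label ties an array to an animal. The p-values therefore describe the spread among these 4 arrays, and that spread may be technical. The question was whether these transcripts differ with the level of the ganglion.

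Tac1 encodes the precursor that is cut into substance P and neurokinin A, and substance P acts mainly on the receptor encoded by Tacr1. Calca and Calcb each encode a CGRP, whose receptor is a pair of Calcrl and Ramp1, while Calcrl with Ramp2 or Ramp3 forms receptors for adrenomedullin. Adcyap1 encodes the precursor of PACAP, and Adcyap1r1 its selective receptor. In the ganglion these peptides are known as products of small-diameter nociceptors, which release them from both ends of their axons, in the skin and organs and in the dorsal horn of the spinal cord, where much of the receptor protein lies on other cells.

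Intensities are on the linear scale of the deposited table. Differences are of log2(intensity + 16), sample-2 level minus sample-1 level, from a limma fit over the 27022 probe sets whose mean log2 value lay at or above the 40th percentile, an intensity of 14.3. A Benjamini-Hochberg adjusted p under 0.05, over all 27022, counted as past the threshold. Sensory neuron markers lay far above the filter on every array, Prph, a neuronal intermediate filament, at 5658 to 6236 and Pou4f1, a sensory neuron transcription factor, at 477 to 568. Skeletal muscle transcripts stood apart on sample-1 array 2, where the summed intensity of 5 muscle markers was 4482, while array 1 of that level had 993 and the sample-2 arrays had 1020.02 and 699.

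Of the 17 probe sets 9 were tested, from 8 genes, and 8 lay under the filter, among them the single probe set of Tacr1. The precursor of substance P was higher at the sample-2 level, and it was the 1 probe set of the 9 that passed the threshold, where 0.622% of all tested probe sets passed, 0.222% as higher and 0.4% as lower. All 4 tested precursor probe sets, from 3 genes, lay above 0, with a median difference of 0.21. Of all genes, by the brightest tested probe set, 48.8% lay above 0. All 4 precursor probe sets had both sample-2 arrays above both sample-1 arrays, as had 21.1% of all tested probe sets. Of the 5 tested receptor probe sets 4 lay below 0, with a median of -0.17, and 2 had both sample-2 arrays below both sample-1 arrays, as had 20.1% of all. The median difference over all tested probe sets was 0.0046. Whether precursors and receptors differed from each other as groups was not tested.

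**Figure D1:**
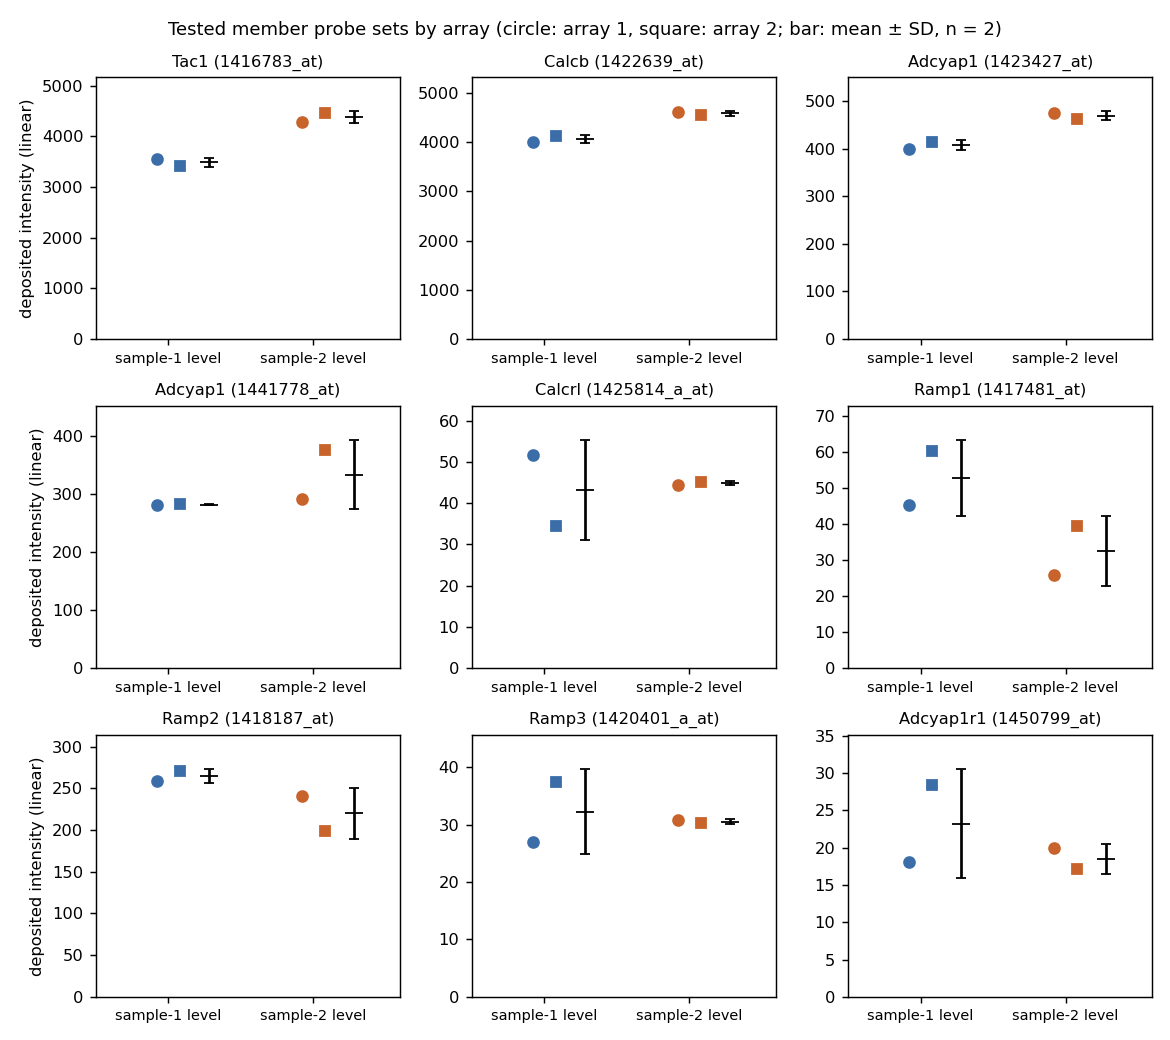
Deposited intensity (linear, y axis from 0) of the 9 tested probe sets on each array, with the sample-1 level left and the sample-2 level right in each panel, circles for array 1, squares for array 2, and the mean ± SD (n = 2) beside them. The 4 precursor panels have both sample-2 points above both sample-1 points, while in the Calcrl, Ramp3 and Adcyap1r1 panels the points of the levels overlap.

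Tac1 was measured by probe set 1416783_at at 3549 and 3426 at the sample-1 level and at 4291 and 4461 at the sample-2 level. Both sample-2 arrays lay above both sample-1 arrays, and the gap between the levels was several times the spread within either. The means were 3487 ± 87.0 (SD, n = 2) and 4376 ± 120.1 (SD, n = 2), and Tac1 rose by 0.33 ± 0.06 (log2 difference ± SE, limma adjusted p = 0.0463), which is 1.25-fold with a 95% interval of 1.14 to 1.38. Of all tested probe sets 7.37% were higher by at least as much, a share that leaves out those lower by as much. The p of Tac1, which counts both directions, ranked 152 of 27022. The call lay close to the threshold and ended with a pseudocount of 1, without the filter, with arrays centred on their medians and without the intensity trend, at limma adjusted p of 0.0526 to 0.526. Leaving out 1 array at a time gave an adjusted p of 0.0450 to 0.245, under 0.05 only without sample-2 array 1, and without sample-1 array 2, the array with the muscle transcripts, it was 0.245 at a difference of 0.30. The second Tac1 probe set, 1431883_at, lay under the filter at 19.2 and 5.93 against 12.6 and 20.0, and its levels overlapped.

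Adcyap1, the PACAP precursor, was measured by 2 tested probe sets. By 1423427_at it lay at 400.0 and 414 at the sample-1 level and at 476 and 463 at the sample-2 level. The levels did not overlap, and the difference of 0.20 ± 0.10 did not pass (limma adjusted p = 0.489, 95% interval -0.01 to 0.41). By 1441778_at it lay at 282 and 283 against 292 and 376, a difference of 0.22 ± 0.13 (adjusted p = 0.580). There the sample-2 arrays were far apart and the lower of them was near the sample-1 arrays, so that the difference was 0.04 without sample-2 array 2 and 0.39 without sample-2 array 1. Both probe sets gave a difference of about the same size, and the interval of each held both 0 and the size of the Tac1 difference.

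Calcb encodes beta-CGRP. Its probe set, 1422639_at, lay at 4009 and 4115 at the sample-1 level and at 4615 and 4552 at the sample-2 level. The means were 4062 ± 75.0 and 4583 ± 44.1 (SD, n = 2), and the levels did not overlap. The difference was 0.17 ± 0.06, or 1.13-fold with a 95% interval of 1.03 to 1.24, and it did not pass over all probe sets (limma adjusted p = 0.291).

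**Figure D2:**
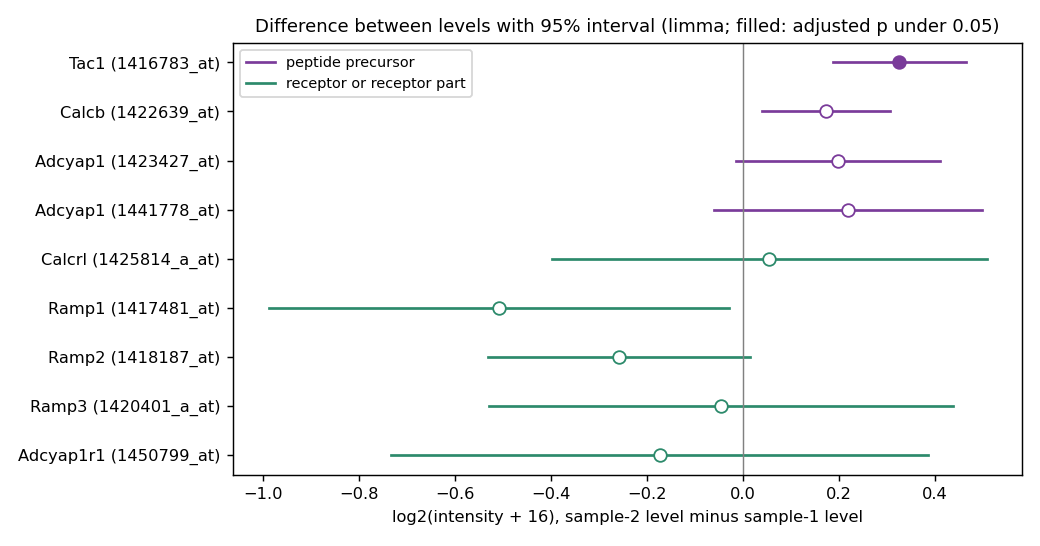
Difference between levels (x axis, log2(intensity + 16), sample-2 level minus sample-1 level) of the 9 tested probe sets with its 95% interval from limma, precursors in purple and receptors or receptor parts in green, filled where the adjusted p was under 0.05. The single filled point is Tac1 at 0.33, the other precursor points lie at 0.17 to 0.22, and the intervals of Calcrl, Ramp1, Ramp3 and Adcyap1r1 are the 4 widest.

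The RefSeq promoter set (GRCm38.p6) had windows for all members but Calcb and Ramp2. The 250 bases before the transcript start are shown for Tac1 and Adcyap1, the tested precursors that had a window. Whether these sequences bear on the differences between levels was not tested. Capitals mark the half-site of the cyclic AMP response element, TGACG, and the E-box CACGTG, each searched on both strands, with no match overlapping another. The Tac1 window is chr6:7554811-7555060 on the + strand, and the Adcyap1 window, the later of 2 annotated starts, is chr17:93198918-93199167 on the + strand.
Tac1: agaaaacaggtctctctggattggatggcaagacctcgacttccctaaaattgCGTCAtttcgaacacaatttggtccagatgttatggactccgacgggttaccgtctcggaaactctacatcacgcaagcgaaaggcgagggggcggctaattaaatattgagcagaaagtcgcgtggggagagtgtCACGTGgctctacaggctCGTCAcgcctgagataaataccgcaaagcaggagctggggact
Adcyap1: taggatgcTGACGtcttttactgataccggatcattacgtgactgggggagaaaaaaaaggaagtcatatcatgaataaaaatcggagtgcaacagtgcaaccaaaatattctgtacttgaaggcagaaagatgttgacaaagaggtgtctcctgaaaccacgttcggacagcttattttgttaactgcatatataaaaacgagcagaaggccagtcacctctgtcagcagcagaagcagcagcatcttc
The Tac1 window held TGACG at 2 places, both on the opposite strand, 197 and 43 bases before the start, and 1 CACGTG 61 bases before it. The Adcyap1 window held 1 TGACG 242 bases before the start and no CACGTG. The same TGACG lay 91 bases before the earlier of its starts. Of the windows not shown, that of Calca held TGACG 65 bases before its start. That of the receptor gene Tacr1 held it 226 bases before, on the opposite strand. The windows of Calcrl, Ramp1, Ramp3 and Adcyap1r1 held neither TGACG nor CACGTG. Of 32817 promoter windows of this length 17.7% held TGACG, 3.9% held it at 2 or more places and 6.02% held CACGTG. A match of letters is a description of the sequence and not a bound site.

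None of the receptor probe sets passed. Tacr1, the substance P receptor, lay under the filter on every array, at 3.09 and 3.59 at the sample-1 level and 2.42 and 5.30 at the sample-2 level. No detection calls were used, so these values have no call against background, and the levels overlapped. Calcrl, the G protein-coupled core of the CGRP and adrenomedullin receptors, was tested by 1425814_a_at, at 51.7 and 34.6 against 44.5 and 45.1. The sample-2 arrays lay between the sample-1 arrays, and the difference was 0.06 ± 0.21 (limma adjusted p = 0.958, 95% interval -0.40 to 0.51). Its other 2 probe sets lay under the filter, with every array between 0.481 and 19.8.

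Ramp1, the accessory protein that makes Calcrl a CGRP receptor, lay at 45.4 and 60.2 at the sample-1 level and at 25.7 and 39.5 at the sample-2 level by its tested probe set, 1417481_at. The levels did not overlap, although the nearest arrays of the levels were closer to each other than the arrays within a level. The means were 52.8 ± 10.5 and 32.6 ± 9.74 (SD, n = 2), and the difference of -0.51 ± 0.22 did not pass (limma adjusted p = 0.428, 95% interval -0.99 to -0.03). Leaving out 1 array at a time moved it between -0.71 and -0.30. Its other 2 probe sets lay under the filter, 1431413_at at 1.79 and 1.22 against 10.1 and 8.48 and 1447474_at at 7.29 and 12.2 against 3.79 and 11.3. The first of these was higher at the sample-2 level, opposite to the tested probe set, at intensities too low for a test.

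Ramp2, which directs Calcrl towards adrenomedullin and is abundant in vessels, was measured by 1418187_at at 259 and 271 at the sample-1 level and 241 and 198 at the sample-2 level. Both sample-2 arrays were lower, the second of them more so, and the difference was -0.26 ± 0.12 (limma adjusted p = 0.487, 95% interval -0.53 to 0.02). Without each array in turn it ranged from -0.39 to -0.12, the latter without sample-2 array 2. Ramp3, the third accessory protein, lay at 27.0 and 37.5 against 30.8 and 30.3, with the sample-2 arrays between the sample-1 arrays and a difference of -0.04 ± 0.22 (adjusted p = 0.969). Of the 5 receptor probe sets, of which 0 passed in the limma fit, 1, that of Ramp1, had an unadjusted p under 0.05, as had 10.9% of all tested probe sets.

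Adcyap1r1, the PACAP receptor, was tested by 1450799_at, at 18.1 and 28.4 at the sample-1 level and 19.9 and 17.1 at the sample-2 level. The levels overlapped and the difference was -0.17 ± 0.26 (limma adjusted p = 0.867, 95% interval -0.73 to 0.39). The other 2 probe sets, both under the filter, had lower values at the sample-2 level, 1439042_at at 13.3 and 11.9 against 1.72 and 1.19 and 1429022_at at 33.1 and 9.05 against 2.64 and 3.76. The arrays of the levels did not overlap on either, and each is a description with no test.

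**Figure D3:**
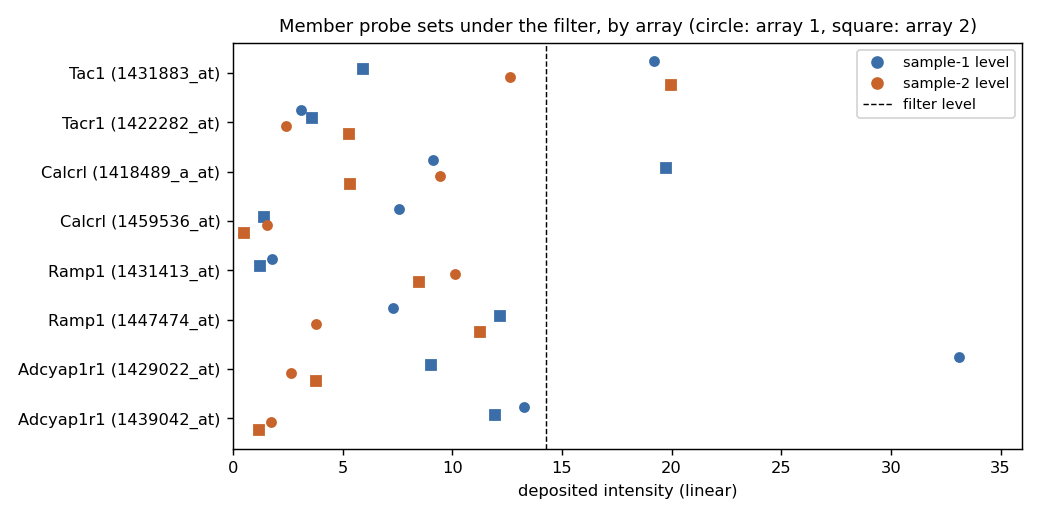
Deposited intensity (linear, x axis) of the 8 member probe sets under the filter, by array, blue for the sample-1 level and orange for the sample-2 level, with the filter level of 14.3 as a dashed line. All Tacr1 points lie at or under 5.30, and both Adcyap1r1 probe sets have their orange points left of their blue points.

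The precursors were read beside the markers of the cells a ganglion holds, each gene by its brightest tested probe set, where 0.842% of 13543 genes passed. An unadjusted p under 0.05 was found for 10.9% of all tested probe sets. All 4 tested peptidergic nociceptor markers lay above 0, with a median difference of 0.38, against -0.0059 over all genes. Trpv1, the heat- and capsaicin-gated channel of these neurons, rose by 0.74 ± 0.09 (limma adjusted p = 0.00432), the 1 of the 4 that passed. The summed intensity of the 4 was 1615 and 1673 at the sample-1 level and 2373 and 2263 at the sample-2 level. Of 7 general sensory neuron markers 6 lay above 0, with a median of 0.08, none passed by its brightest probe set and 1 had an unadjusted p under 0.05, and their summed intensity was 26029 and 26641 against 28364 and 26714. Another probe set of Scn9a, a sodium channel on that list, did pass. Fibroblast and meningeal markers moved the other way, with 5 of 6 lower past the threshold and a summed intensity of 13211 and 11545 against 7441 and 6975. Of the other marker genes, 5 of 5 of neutrophils and red cells were higher past the threshold, 2 of 5 of large myelinated neurons, 1 of 4 of Schwann cells and 1 of 5 of skeletal muscle were lower, and 0 of 4 of macrophages passed, with 1 at an unadjusted p under 0.05. That unadjusted level was met by 3 of 4 nociceptor, 6 of 6 fibroblast and meningeal and 5 of 5 neutrophil and red cell markers. It was also met by 3 of 5 large myelinated neuron, 3 of 4 Schwann cell and 4 of 5 muscle markers. The part of these cells in the precursor values was not tested. In bulk ganglia fewer cells of a type and less RNA per cell cannot be told apart.

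The mean log2 value of the 7 general markers was 0.13 higher at the sample-2 level, and centring each array on that mean, a choice made after the data were seen, lowers every difference by that amount by construction. Of the 7, Scn9a had the largest difference, at 0.38. With this centring Tac1 differed by 0.20 ± 0.07 (limma adjusted p = 0.136) and no longer passed, Calcb by 0.05 ± 0.06 and the Adcyap1 probe sets by 0.07 ± 0.10 and 0.09 ± 0.14. All 4 lay above 0, as they had to, since each difference had been larger than the amount taken off. The receptor probe sets of Ramp1 and Ramp2 then differed by -0.63 ± 0.23 and -0.38 ± 0.13 and did not pass either (adjusted p = 0.161 and 0.133).

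Calcrl and the Ramp genes are also expressed by vessels. Of 8 endothelial markers 3 lay above 0 and 5 below, none passed in the limma fit, 1 had an unadjusted p under 0.05, and the median was -0.17. Their summed intensity was 561 and 509 at the sample-1 level and 543 and 415 at the sample-2 level. Their differences ran from -0.41 ± 0.22 for Kdr, a receptor for VEGF, to 0.26 ± 0.20 for Tek, the angiopoietin receptor. Both this sum and Ramp2 were lowest on sample-2 array 2. Also lowest there were the sums of large myelinated neuron, satellite glial, Schwann cell, fibroblast and meningeal, skeletal muscle and macrophage markers. The sums of sensory neuron, nociceptor, pericyte and smooth muscle, and neutrophil and red cell markers were lowest on a sample-1 array. Calcrl was lowest on sample-1 array 2, Ramp1 on sample-2 array 1 and Ramp3 on sample-1 array 1. Of 7 markers of pericytes and smooth muscle 3 lay above 0 and none passed, with 5 at an unadjusted p under 0.05. Among those 5, Rgs5 and Myh11 were higher at the sample-2 level and Acta2, Cspg4 and Tagln were lower. Of 5 satellite glial markers all lay below 0 and none passed, with 1 at an unadjusted p under 0.05. The part of these cells in the receptor values was not tested.

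Genes that make, cleave and relay the peptides were counted in the same way, by each gene's brightest tested probe set. Of 12 tested genes of peptide processing and dense-core vesicles, the organelles in which neuropeptides are packed, 9 lay above 0 and the median difference was 0.11. Of all genes 48.8% lay above 0. None of the vesicle genes passed in the limma fit, and 5 had an unadjusted p under 0.05. Of these 5, Chgb was lower at the sample-2 level and the others were higher. Chga and Chgb differed by -0.21 each. Syt4, a synaptotagmin of such vesicles, lay at 1417 and 1323 at the sample-1 level and 1598 and 1796 at the sample-2 level (0.30 ± 0.08, adjusted p = 0.159). Pam, the enzyme that amidates substance P and CGRP, lay at 77.8 and 69.7 against 116.9 and 23.1, so that its sample-2 arrays lay on either side of the others.

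Of 6 tested peptide-degrading enzymes 4 lay above 0 and none passed, with 1 at an unadjusted p under 0.05. That was Mme, neprilysin, which cleaves substance P, at 235 and 203 at the sample-1 level and 149.6 and 118 at the sample-2 level. Both sample-2 arrays were lower, and the difference of -0.65 ± 0.14 lay just outside the threshold (limma adjusted p = 0.0743). Its second tested probe set, at -0.39 ± 0.24, was on the same side. Ece2, an endothelin-converting enzyme, lay at 217 and 227 against 241 and 299 (0.26 ± 0.13, adjusted p = 0.498); a second probe set of the gene was at -0.12.

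Of 21 tested genes of receptor signalling and desensitisation, such as G protein alpha subunits, adenylyl cyclases, protein kinase A subunits, phospholipases and arrestins, 9 lay above 0 and the median difference was -0.0080. None passed in the limma fit, and 2 had an unadjusted p under 0.05. These were Plcb3, a phospholipase C, at 387 and 432 against 538 and 499.7 (0.33 ± 0.10, adjusted p = 0.220), and Gna11, a G protein alpha subunit, at 669 and 765 against 577 and 588 (-0.29 ± 0.10, adjusted p = 0.262). The other tested probe set of Gna11 differed by -0.03.

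Of 12 ligands and receptors related to the members, only 4 had a probe set at or above the filter, and none passed or had an unadjusted p under 0.05 by the brightest probe set. Tacr2, the neurokinin A receptor, lay at 14.0 and 23.8 against 41.1 and 27.5 (0.53 ± 0.26, adjusted p = 0.484). Adm, the adrenomedullin gene, lay at 33.7 and 26.3 against 43.3 and 36.4 by its brightest probe set (0.28 ± 0.21, adjusted p = 0.695), and its other tested probe set differed by 0.84 ± 0.22 (adjusted p = 0.135). Crcp, a component of the CGRP receptor complex, differed by 0.01 ± 0.11. The 8 genes under the filter included Vip, Vipr1 and Vipr2, the peptide and receptors closest to PACAP and its receptor, and Calcr, the calcitonin receptor.

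**Figure D4:**
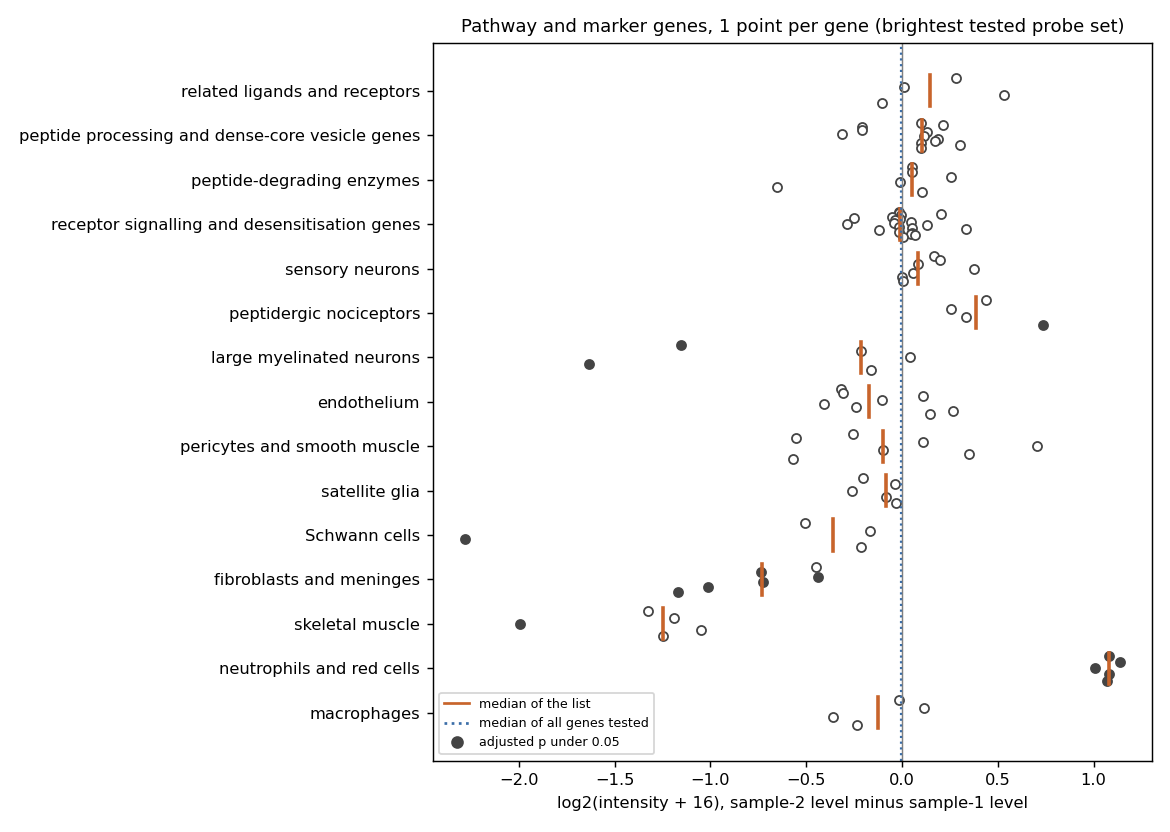
Difference between levels (x axis, log2(intensity + 16), sample-2 level minus sample-1 level) of each tested gene of 4 pathway lists and 11 marker lists, by its brightest tested probe set, with the list's median as an orange bar, the median of all genes as a blue dotted line, and filled points for adjusted p under 0.05. The pathway lists have 0 filled points and the vesicle list has 9 of 12 points right of 0, while the filled points are Trpv1 at 0.74 and the genes past the threshold on the lists of neutrophils and red cells, fibroblasts and meninges, large myelinated neurons, Schwann cells and skeletal muscle.

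The 3 genes whose pattern over the 4 arrays was nearest to that of Tac1 were Trpa1, Gcnt2 and Rgs5, at root mean square distances of 0.012, 0.013 and 0.014 between their centred log2 values, among 6771 genes of at least median level. Trpa1, the irritant-gated channel, lay at 376 and 360 at the sample-1 level and 457 and 466 at the sample-2 level (0.32 ± 0.10, limma adjusted p = 0.227). Gcnt2, a glycosyltransferase, differed by 0.30 ± 0.07 (adjusted p = 0.0804), and Rgs5, a regulator of G protein signalling, by 0.35 ± 0.07 (adjusted p = 0.0558). Rgs5 is also on the list of pericyte and smooth muscle markers. With 4 arrays many patterns lie close to each other, and the distance is a description only.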

How the data were processed

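Total RNA of 4 Affymetrix mouse arrays was compared, 2 arrays per level of dorsal root ganglia, grouped by the sample titles. The authors deposited an intensity per probe set on a linear scale, and the trimmed mean (2% at each end) was 150.0 on all 4 arrays, so the values had been scaled before deposit. What software made them is not given in the sources used here. The number of arrays limits the precision. Array medians differed by 0.05 on the log2 scale, under the limit of 0.15, and the deposited scaling was kept.

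Intensities were taken as log2(intensity + 16), 64 control probe sets and those under the 40th percentile of mean log2 value were left out, and the rest was fitted with limma 3.58.1 in R 4.3.3 (lmFit, eBayes with an intensity trend, 2 residual and 9.71 prior degrees of freedom), without covariates. The pseudocount makes differences of dim probe sets smaller than the true ratio. The fit was tested on data simulated from its own variance model with the intensity trend. That test cannot show whether this model holds for these arrays. Symbols were taken from the platform annotation, in which 34945 probe sets had 1 symbol, 932 several and 9160 none, and 34741 gene IDs matched a RefSeq table (GRCm38.p6).

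The members, lists and tests were chosen with earlier results of these data known, so no p was adjusted over the members alone and no set test was run. Named were all members, the genes of each pathway list past the threshold (otherwise the 2 with the largest difference), and the 3 genes nearest to Tac1 in pattern. The marker genes named beside them, and Chga, Chgb, Crcp and the pathway genes under the filter, were chosen after their values were seen. Alternatives were the pseudocount, the filter, the normalization, the trend, the array number as a block, the choice of probe set and each array left out. The array numbers are not stated to pair the samples, and the difference between arrays 1 and 2 correlated between the levels at r = 0.03 across probe sets.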

Additional observations from a re-analysis of the deposited data

How the results depend on the processing

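Of the 9 member probe sets 6 kept their direction in all of up to 13 alternatives, and none other than that of Tac1 passed in any. The 6 were those with no overlap between the arrays of the levels, where leaving out an array cannot change the direction. The filter, block and trend settings leave the difference itself unchanged. The count of 6 therefore largely restates the overlap. The difference of Tac1 ranged from 0.20 to 0.35. In the number of member probe sets past the threshold, 1 became 0 with a pseudocount of 1, with no filter, with each array centred on its median, without the intensity trend and with arrays centred on the sensory neuron markers (added after the data were seen), where the adjusted p of Tac1 was 0.0526, 0.397, 0.100, 0.526 and 0.136. It stayed at 1 with a pseudocount of 64, a filter at the 60th percentile and quantile normalization. With each array left out it was 0 to 1. The number over all probe sets, 168, became 4 with no filter, 104 with median centring, 1 without the trend and 638 with centring on the neuron markers (58 higher and 580 lower, against 60 and 108), and it ranged from 102 to 241 with each array left out. With the array number as a replicate block it was 793, and the adjusted p of Tac1 was 0.00655; the block changed no other member call, and since the samples share only a number, no weight was put on it. The 3 probe sets that changed direction, none past the threshold, were those of Calcrl, Ramp3 and Adcyap1r1: with each array left out Calcrl ranged from -0.16 to 0.27, Ramp3 from -0.20 to 0.11 and Adcyap1r1 from -0.36 to 0.018, and Calcrl was -0.071 with centring on the neuron markers. The causes were not tested. Without the filter more probe sets entered the fit, and the difference of Tac1 stayed at 0.33 while its SE rose from 0.063 to 0.070. Its unadjusted limma p, which does not depend on the number of tests, rose from 0.00026 to 0.0026. The share of each in the lost call was not tested. With an array left out, fewer arrays entered the fit. The 95% intervals of Calcrl, Ramp3 and Adcyap1r1 all reach from -0.40 or lower to 0.39 or higher; the part of their low signal in this was not tested.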
